A study of Mus musculus with 12 samples.

Results

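The epidermal growth factor (EGF) receptor ligands and their receptors were examined in RNA from the mouse gastric fundus, the acid-secreting region of the stomach. Of the ligands, the set holds Tgfa, Hbegf, Areg, Ereg, Btc and Egf, and of the receptors Egfr, Erbb2 and Erbb3. Members were all probe sets (groups of short oligonucleotide probes for a transcript) that carry one of these 9 gene symbols. The rule found 17 probe sets of 8 genes among 22626 probe sets tested, which carry 12393 gene symbols. Areg was not matched to a probe set and is not analysed here. Tgfa had 3 probe sets, Hbegf 2, Btc 2, Egfr 5 and Erbb3 2, and Ereg, Egf and Erbb2 had 1 each.

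The 12 arrays held mucosal scrapings of the fundus in 4 groups of 3. The first was wild type, for which RNA came from about 2 to 4 mice. The next pair were gastrin knockout mice infused for 1 week with saline (labelled as males 2 months old) or with gastrin. The last was a gastrin-CCK double knockout, with no infusion named. All 9 knockout arrays are thus from mice with the gastrin gene knocked out, and one of these groups was given gastrin back. The labels do not give the strain, the gastrin dose, the age and sex of the other groups, or whether replicates came from separate animals. The spread behind the p-values is therefore that among these samples and may be technical. Both infused groups differ from wild type, and from double knockouts, in the infusion as well as in genotype.

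Gastrin is a hormone of the antral stomach that drives acid secretion and the growth of the fundic mucosa. It acts on the CCK2 receptor of parietal cells, which make acid, and of enterochromaffin-like cells, which release histamine. EGF receptor ligands are made as membrane-bound precursors that proteases of the ADAM family cut free. The ligand joins 2 receptors into a dimer, whose kinase then feeds the RAS-ERK and PI3K-AKT cascades. Erbb2 binds no ligand of its own, and Erbb3 binds neuregulins and has little kinase activity, so both work mainly as partners. In the stomach, these ligands are known for mucosal repair and for the balance between surface mucous and parietal cells.

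Array medians lay between 403 and 421 intensity units. The noise level, read from values below 0 on the array, lay between 67 and 96. Replicates of a group correlated at r = 0.955 to 0.973 over all probe sets. The targeted gene Gast read 318 to 823 in wild type, -8 to 37 in saline-infused knockouts, -72 to -34 in gastrin-infused knockouts and -162 to -35 in double knockouts. The double knockout arrays had lower maxima, 65365 to 71514 against 88899 to 113441 elsewhere. The 3' to 5' Gapdh ratio, a measure of RNA integrity, spanned 0.983 to 2 in wild type and 1.01 to 1.32 elsewhere. In scrapings such as these, fewer cells of a type and less RNA per cell cannot be told apart. Of the member probe sets, 14 of 17 were above noise on all 12 arrays, and their mean levels ran from 168 to 6324.

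Betacellulin (Btc) was the member that passed the test in these comparisons. It fell under gastrin infusion of the knockout, and it was lower there than in the double knockout. All differences below are log2 differences of group means with limma's standard error, and p-values are limma's after Benjamini-Hochberg adjustment over all probe sets, with 0.05 as the threshold. In gastrin-infused against saline-infused knockouts, 1 of 17 member probe sets passed, and it was lower. Of all probe sets 1.25% passed in either direction, and 0.473% of all probe sets passed lower. Against the double knockout, the gastrin-infused knockout again had 1 of 17, lower, beside 5.83% of all probe sets in either direction and 3.08% of all probe sets lower.

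No member passed in the other 4 comparisons. The share of all probe sets that passed was 2.08% for saline-infused knockout against wild type, 4.14% for double knockout against wild type, 5.98% for double knockout against saline-infused knockout and 0.11% for gastrin-infused knockout against wild type. With limma's unadjusted p under 0.05, in the same order, 6, 4, 3 and 4 of the 17 passed, beside 17.8%, 19.6%, 21.5% and 11.6% of all probe sets. For gastrin against saline it was 5 of 17, beside 16%, and for gastrin-infused against double knockout 2 of 17, beside 21.6%.

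Most members read higher in the saline-infused knockout than in wild type, and lower under gastrin than under saline, by small amounts. In the former comparison 14 of 17 were higher (51.1% of all probe sets), with a median difference of 0.24. In the latter 2 of 17 were higher (48.4% of all), with a median of -0.16. The median over all probe sets was 0 in both. The same saline arrays enter both comparisons, so their opposite signs are not independent. Probe sets of 1 gene share their transcript, and the 17 are not independent either.

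Groups that did not overlap were counted too. Between saline-infused knockout and wild type, 7 of 17 member probe sets did not overlap, where 22.6% of all probe sets did not. Of these, 6 were higher, beside 10.6% of all, and 1 was lower, beside 11.9%. Between gastrin and saline infusion it was 6 of 17, beside 20.2% of all. There 1 was higher, beside 10.2%, and 5 were lower, beside 10%. The double knockout did not overlap wild type in 3 of 17 (23.7% of all) and the saline-infused knockout in 5 of 17 (25.2% of all). Gastrin-infused knockouts did not overlap wild type in 3 of 17 (16.2% of all) and the double knockout in 4 of 17 (25.5% of all).

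**Figure D1:**
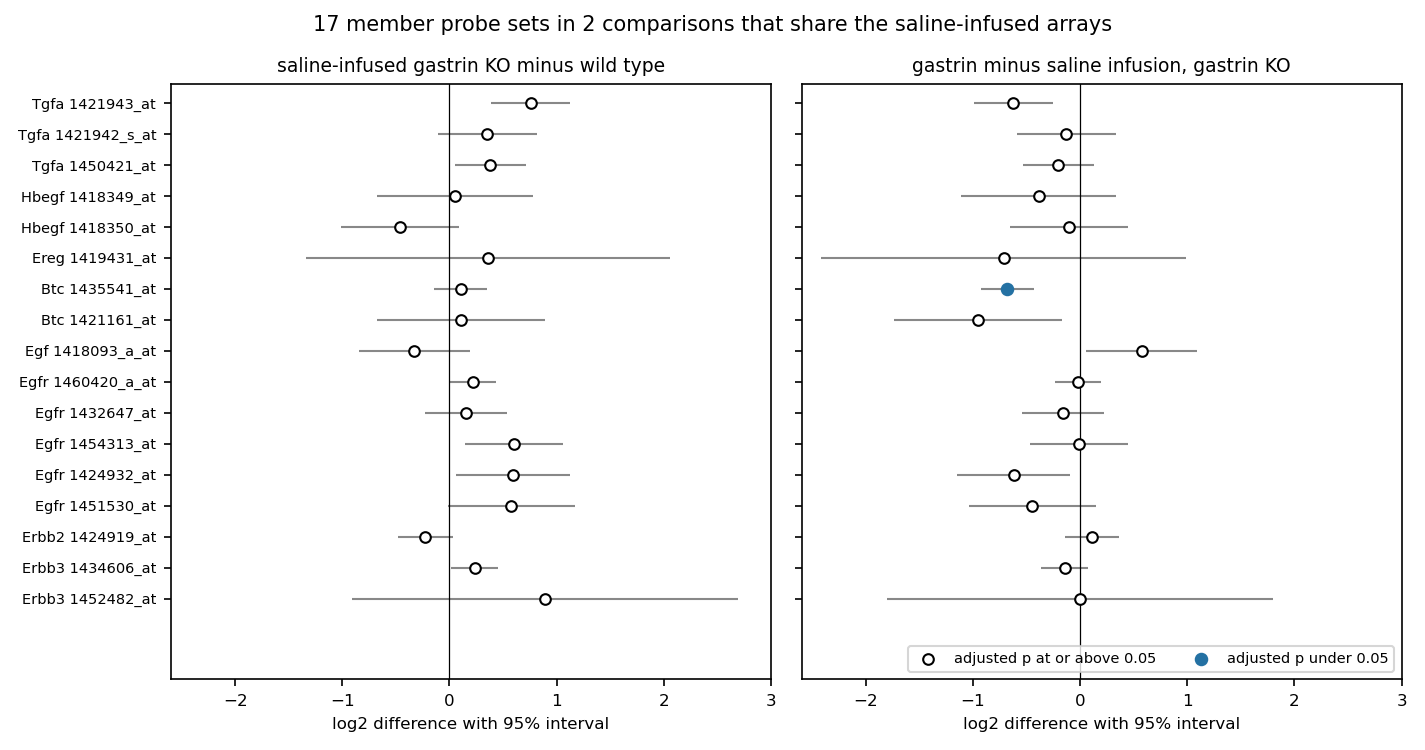
Log2 differences of the 17 member probe sets with 95% intervals, for saline-infused knockout minus wild type (left) and for gastrin minus saline infusion of the knockout (right), which share the saline arrays. The filled point, Btc at -0.68, passed the test, and most open points lie right of 0 on the left and left of 0 on the right.

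Among the ligands, Btc binds both Egfr and Erbb4. Its brighter probe set (1435541_at) read 1394, 1197 and 1146 in wild type, 1331, 1392 and 1284 in saline-infused knockouts, 948, 827 and 736 in gastrin-infused knockouts, and 1289, 1342 and 1184 in double knockouts. Each gastrin-infused array lay below each of the other 9, while the other 3 groups overlapped. The fall from saline to gastrin was 1.6-fold (-0.68 ± 0.11 SE, 95% interval -0.93 to -0.44, n = 3 against 3, adjusted p = 0.0299 by limma). Against the double knockout the gastrin-infused group was lower by a similar size (-0.61, interval -0.86 to -0.36, adjusted p = 0.0165 by limma). Against wild type the groups did not overlap, but the difference of -0.58 did not pass (adjusted p = 0.105 by limma). Saline-infused knockout and wild type differed by 0.11, with an interval of -0.14 to 0.35 and an adjusted p of 0.666 by limma.

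The call for Btc between gastrin and saline rests on narrow margins. By limma it passed without gastrin-infused replicate 1 (adjusted p = 0.0395). It did not pass without saline replicate 1 (0.0809), 2 (0.0767) or 3 (0.0648) or without gastrin-infused replicate 2 (0.0878) or 3 (0.0722), at differences of -0.59 to -0.71. Against the double knockout it was lost without gastrin-infused replicate 2 (0.0546) and double knockout replicate 1 (0.0516) or 2 (0.0557). Fitted on only the 2 groups compared, neither call passed (adjusted p = 0.12 and 0.0824 by limma).

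The dimmer Btc probe set (1421161_at) comes from another sequence record. It read 240, 156 and 172 in wild type, 208, 206 and 188 under saline, 127, 54 and 162 under gastrin, and 155, 170 and 176 in double knockouts. The gastrin and saline groups again did not overlap, with a difference of -0.95 ± 0.35 SE that did not pass (adjusted p = 0.224 by limma). The gastrin group overlapped wild type and double knockouts here, and 1 of its values was below the noise range. The 2 Btc probe sets correlated at r = 0.667 over the 12 arrays.

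Markers of other cell types moved in the same comparison. The summed level of 13 measured forestomach markers (of 14 listed), genes of the squamous epithelium that adjoins the fundus, was 51037, 27241 and 52600 under saline and 13440, 29118 and 10588 under gastrin. In wild type it was 20589 to 29139 and in double knockouts 14448 to 39114. Of the 13 markers, 3 passed lower between gastrin and saline. With the summed forestomach level as a covariate, the Btc difference between gastrin and saline was -0.70 and did not pass (adjusted p = 0.117 by limma). That against the double knockout passed (-0.62, adjusted p = 0.0411 by limma). The summed level of 7 proliferation genes (of 8 listed) was 7054 to 8293 under gastrin, below the 10569 to 14586 under saline, 9831 to 11238 in wild type and 9329 to 14971 in double knockouts. Of those 7 genes, 0 passed between gastrin and saline, and 5 had an unadjusted p under 0.05 by limma, with a median difference of -0.70. Summed parietal markers, 9 of 10 listed, ran from 228533 to 236902 under gastrin and from 160423 to 192211 under saline, and 6 of the 9 rose. Summed markers of stroma and smooth muscle, 8 of 8 listed, were 34029, 21128 and 17426 under gastrin and 10973, 9479 and 17638 under saline, with a median difference of 0.74, and 0 of the 8 passed (3 at an unadjusted p under 0.05 by limma). Summed enterochromaffin-like cell markers, 3 of 4 listed, ran from 14788 to 22341 under gastrin and from 2484 to 2826 under saline, and 2 of the 3 rose. The part of proliferating, parietal, stromal and enterochromaffin-like cells in the Btc result was not tested.

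Transforming growth factor alpha (Tgfa) is a ligand made by surface and parietal cells of the stomach. Its brightest probe set (1421943_at) read 822, 982 and 907 in wild type and 1500, 1748 and 1356 under saline, so these groups did not overlap. Gastrin-infused knockouts read 1112, 1106 and 788, and double knockouts 1216, 1484 and 1146. The double knockout also lay wholly above wild type, and the gastrin-infused arrays wholly below the saline arrays. The difference between double knockout and wild type was 0.50 (interval 0.13 to 0.87, adjusted p = 0.134 by limma). Between gastrin and saline it was -0.63 ± 0.16 SE (interval -0.995 to -0.26, adjusted p = 0.104 by limma). Neither passed, nor did saline-infused knockout against wild type, whose adjusted p of 0.0533 (0.76, interval 0.39 to 1.13) was near the threshold. Gastrin-infused knockouts and wild type overlapped and differed by 0.14, with an interval of -0.24 to 0.51.

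The other 2 Tgfa probe sets were dimmer, and neither passed in any comparison. Probe set 1421942_s_at read 433, 383 and 500 in wild type, 581, 595 and 502 under saline, 439, 520 and 578 under gastrin, and 607, 528 and 924 in double knockouts. Saline-infused and double knockouts both lay above wild type, by 0.36 (adjusted p = 0.405 by limma) and 0.61 (0.139). Double knockout replicate 3 was its highest array. Probe set 1450421_at read 392, 336 and 435 in wild type, 576, 425 and 516 under saline, 425, 422 and 461 under gastrin, and 416, 428 and 541 in double knockouts. All of its groups overlapped wild type. The 3 probe sets come from 1 sequence record and correlated with each other at r = 0.29 to 0.673 over the 12 arrays.

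Heparin-binding EGF-like growth factor (Hbegf) is a ligand of Egfr and Erbb4 known for epithelial repair. Its probe set 1418349_at read 949, 920 and 727 in wild type, 854, 1061 and 780 under saline, 928, 602 and 568 under gastrin, and 973, 1251 and 512 in double knockouts. All groups overlapped, and the double knockout arrays spanned more than the rest. Probe set 1418350_at, from the same record, read 1043, 988 and 775 in wild type, 743, 742 and 557 under saline, 729, 617 and 551 under gastrin, and 527, 887 and 470 in double knockouts. Here wild type lay above both infused groups. The difference of saline-infused knockout from wild type was -0.46 (adjusted p = 0.359 by limma) and that of the double knockout -0.62 (0.2). Without double knockout replicate 2, its highest array and the one that overlapped wild type, the latter was -0.90 and passed at an adjusted p of 0.0496. It did not pass without any other 1 array of these groups (adjusted p = 0.193 to 0.451 by limma).

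Epidermal growth factor (Egf), which is abundant in salivary gland, read 311, 439 and 378 in wild type, 369, 221 and 320 under saline, 408, 519 and 406 under gastrin, and 519, 362 and 355 in double knockouts. Gastrin-infused arrays lay wholly above the saline arrays, by 0.57 (adjusted p = 0.26 by limma), and overlapped the other groups. On no other ligand probe set did the gastrin-infused arrays lie wholly above the saline arrays.

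Epiregulin (Ereg), a ligand of Egfr and Erbb4, varied more within groups than between them. It read 209, 155 and 183 in wild type, 235, 107 and 501 under saline, 151, 331 and 57 under gastrin, and 270, 120 and 457 in double knockouts. All groups overlapped. The arrays on which it was high were those with high forestomach markers. In the double knockout these markers summed to 36567, 14448 and 39114 on the same 3 arrays, and the order of Ereg matched that of the markers within each knockout group. Over the 12 arrays the log2 levels correlated at Pearson's r = 0.821 and Spearman's rho = 0.846. The Pearson value was 0.739 over 10 arrays without the pair farthest from the median marker level, gastrin-infused replicates 1 and 3. It was 0.898 for deviations from group means. For the other 16 probe sets this correlation of deviations ran from -0.532 to 0.519. Arrays share their RNA between both measures, and Ereg was singled out after its values were seen.

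**Figure D2:**
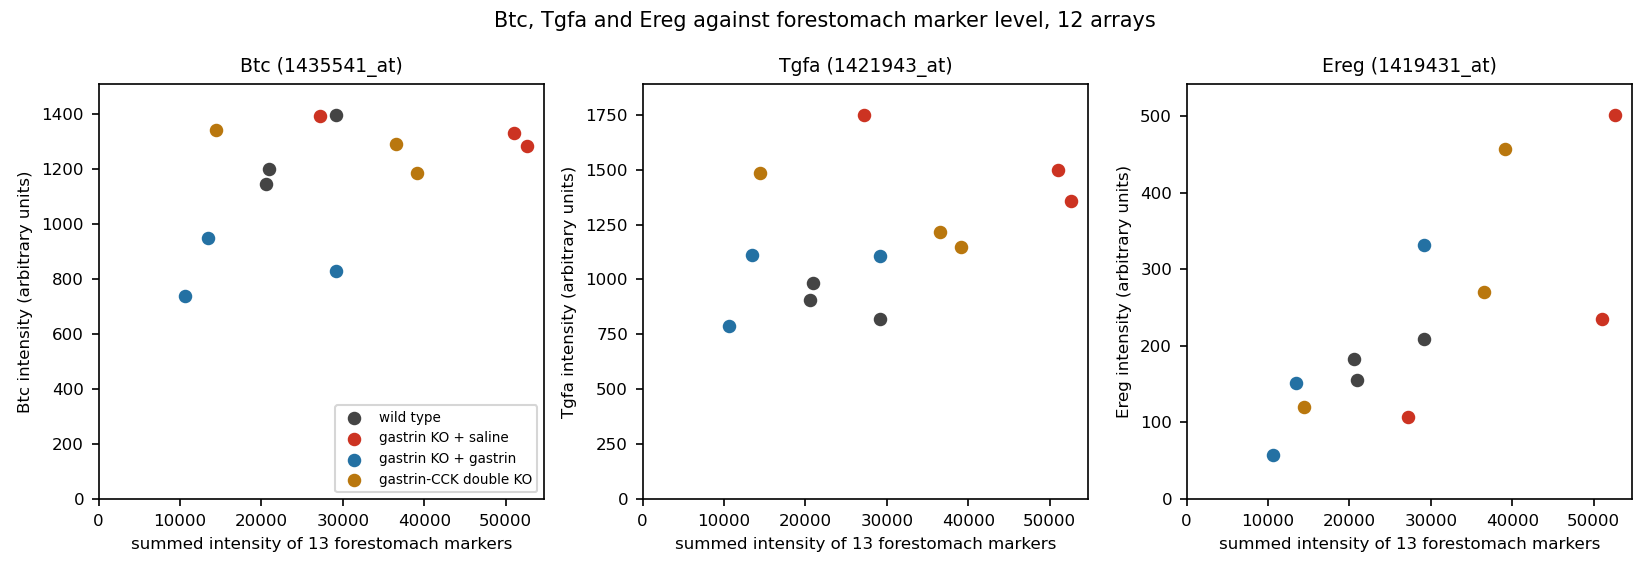
Intensity of Btc (1435541_at), Tgfa (1421943_at) and Ereg (1419431_at) on each of the 12 arrays against the summed intensity of 13 forestomach markers, coloured by group. Ereg follows the marker level (r = 0.821 of log2 values), while the 3 gastrin-infused arrays, at marker levels from 10588 to 29118, lie lowest in Btc. On the same measure r was 0.54 for Btc and 0.417 for Tgfa. Over 10 arrays, without the pair farthest from the median marker level, these were 0.0597 and 0.198. That pair was gastrin-infused replicates 1 and 3. Both are among the 3 arrays lowest in Btc, so for Btc this change cannot be told apart from the loss of those low values.

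Epgn, Ereg, Areg and Btc follow each other as consecutive protein-coding genes in the GRCm38.p6 gene table. Epigen (Epgn), a low-affinity ligand of Egfr, is outside the member rule. It read 421, 292 and 256 in wild type, 459, 349 and 557 under saline, 277, 553 and 426 under gastrin, and 376, 265 and 377 in double knockouts. Like Ereg, it was high on gastrin-infused replicate 2, and it did not share the low gastrin values of Btc. The receptor Erbb4 stayed between -43 and 38 on all 12 arrays, within noise. The neuregulin Nrg4, an Erbb4 ligand, had group means of 258 to 317. Of 4 measured genes among these other family members (of 6 listed), 0 passed in any comparison, at an unadjusted p under 0.05 by limma either.

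**Figure D3:**
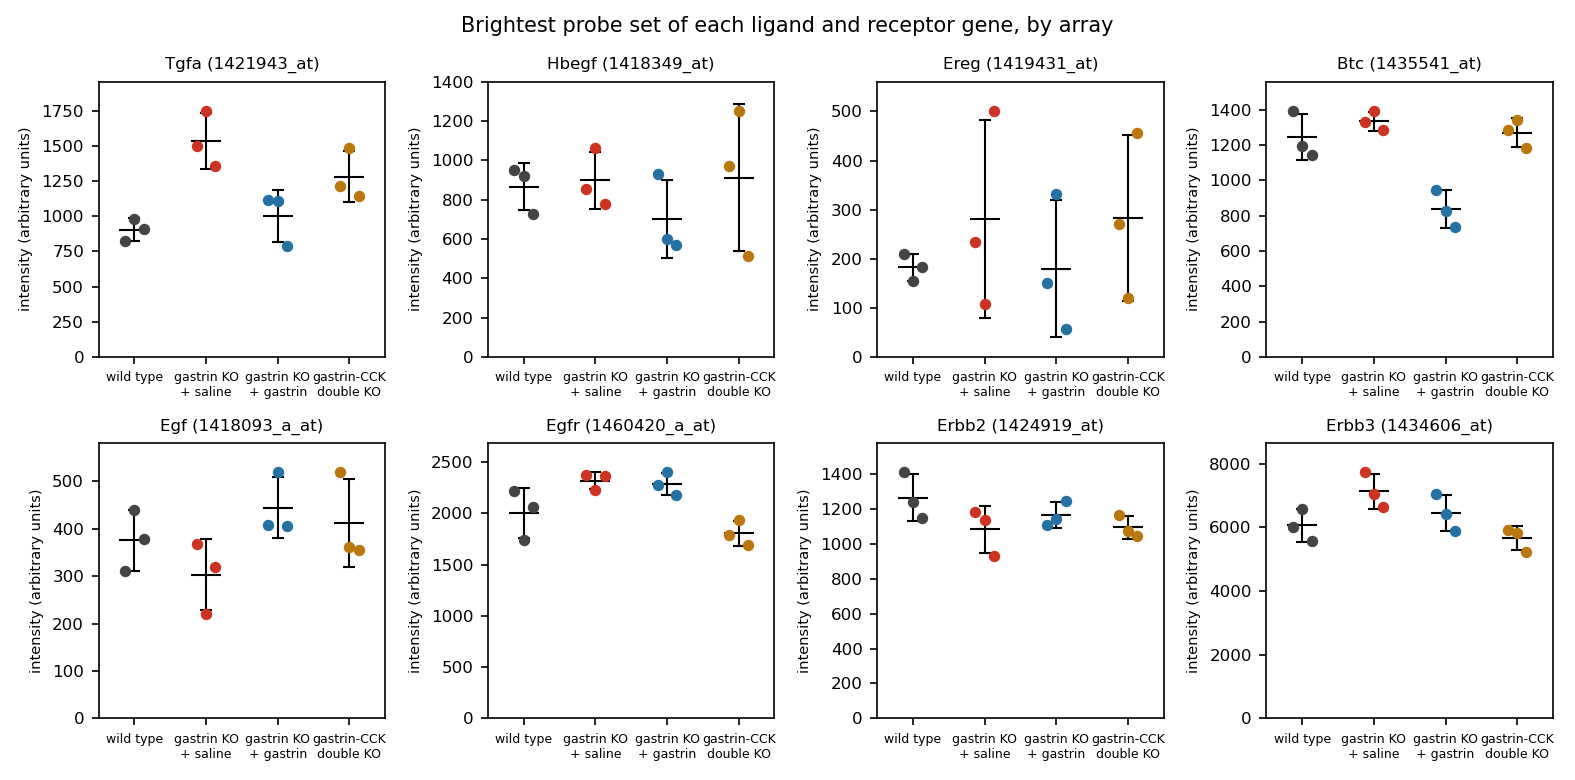
Intensity of the brightest probe set of each of the 8 genes on the 12 arrays, with the mean and SD of each group of 3, on linear axes that start at 0. Btc is low in gastrin-infused knockouts (736 to 948), Tgfa is high in saline-infused knockouts (1356 to 1748), and the groups overlap for Hbegf and Ereg.

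Of the receptors, Egfr binds all of the ligands in the set. Its brightest probe set (1460420_a_at) read 2214, 1737 and 2060 in wild type, 2371, 2224 and 2362 under saline, 2275, 2399 and 2183 under gastrin, and 1790, 1937 and 1687 in double knockouts. The double knockout lay wholly below both infused gastrin knockouts and overlapped wild type. Its difference from the saline-infused knockout was -0.36 (adjusted p = 0.0604 by limma), and the gastrin-infused knockout exceeded it by 0.34 (0.0743). The double knockout was labelled with no infusion, so infusion and genotype cannot be told apart here. Saline-infused knockouts exceeded wild type by 0.22 (adjusted p = 0.28 by limma).

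The other Egfr probe sets did not share one pattern. Probe set 1432647_at read 793, 447 and 639 in wild type, 663, 700 and 673 under saline, 634, 620 and 573 under gastrin, and 498, 493 and 501 in double knockouts. It was lower in double knockouts than under saline by 0.45 on the log2 scale, which did not pass (adjusted p = 0.161 by limma). Without wild type replicate 2, its lowest array, the double knockout lay below wild type by 0.52 and passed (adjusted p = 0.0452). With all arrays that difference was -0.29 (adjusted p = 0.391 by limma). It did not pass without any other 1 array of these groups. Probe set 1454313_at, in contrast, read 508, 535 and 609 in double knockouts, above its 377, 247 and 358 in wild type. It read 503, 551 and 421 under saline and 386, 495 and 597 under gastrin. Its difference of double knockout from wild type, 0.77, did not pass (adjusted p = 0.0712 by limma), nor did that of the saline-infused knockout, 0.60 (0.169).

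Of the 2 remaining Egfr probe sets, 1451530_at read 322, 189 and 366 in wild type, 405, 418 and 437 under saline, 285, 310 and 332 under gastrin, and 318, 274 and 489 in double knockouts. Its saline arrays lay above wild type and above gastrin. Probe set 1424932_at read 349, 428 and 351 in wild type, 620, 741 and 394 under saline, 445, 342 and 326 under gastrin, and 408, 476 and 344 in double knockouts. It was high on 2 of 3 saline arrays. The differences from wild type were 0.58 (adjusted p = 0.291 by limma) and 0.60 (0.228). The 5 probe sets come from 3 sequence records, and their 10 pairwise correlations over the 12 arrays ran from 0.0375 to 0.814.

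Erbb3 had the brightest probe set among the members (1434606_at). It read 6017, 6586 and 5567 in wild type, 7719, 7043 and 6626 under saline, 7037, 6416 and 5888 under gastrin, and 5914, 5833 and 5238 in double knockouts. The saline arrays lay wholly above wild type and above the double knockout. The differences were 0.24 (adjusted p = 0.254 by limma) and, for the double knockout against saline, -0.33 (0.0869). The second Erbb3 probe set (1452482_at) read 330, 24 and 165 in wild type and 122 to 284 in the infused and double knockout groups. Wild type replicate 2 was within noise there. The 2 probe sets correlated at r = 0.132.

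Erbb2, the shared partner receptor, read 1409, 1238 and 1146 in wild type, 1185, 1137 and 929 under saline, 1109, 1142 and 1248 under gastrin, and 1168, 1075 and 1043 in double knockouts. All knockout groups overlapped wild type. The saline-infused knockout differed from wild type by -0.23, with an interval of -0.48 to 0.03 (adjusted p = 0.332 by limma).

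For each member with a probe set at or above the median level, the 3 genes most like its brightest probe set were taken by Pearson's r of log2 values over the 12 arrays. Most like Btc were Sult2b1 (0.953), Slc35a1 (0.912) and Cdc25b (0.907). Sult2b1 had group means of 569 in wild type, 580 under saline, 325 under gastrin and 581 in double knockouts, low in the same group as Btc. Most like Tgfa were Eps8 (0.939), Dppa5a (0.908) and Mocs2 (0.9). Eps8, which encodes a substrate of the EGF receptor kinase, averaged 660, 915, 716 and 833 in the same order of groups. Most like Egfr were Sgsm3, Fgr and Il13ra2 (0.951 to 0.907). For Erbb3 they were Cab39, Cstb and Aldh3a2 (0.932 to 0.916), for Hbegf Rpn1, Parm1 and Gramd3 (0.954 to 0.934) and for Erbb2 Myo10, Lrrc14 and Prrt1 (0.866 to 0.824). These are the highest of many correlations and are given as a description.

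The other genes of the pathway were taken from lists of shedding proteases, adaptors, the ERK and AKT cascades, inhibitors of the receptor, and feedback and response genes. Together with the family members above, 61 of 77 listed genes were measured, with 121 probe sets. In saline-infused knockouts against wild type 0 passed higher and 1 lower (0.826%). Between gastrin and saline 1 passed higher and 0 lower (0.826%). For double knockout against wild type it was 3 higher and 2 lower (4.13%), and against saline-infused knockouts 5 higher and 2 lower (5.79%). In gastrin-infused knockouts, 0 passed against wild type, and against double knockouts 2 were lower and 0 higher (1.65%). At limma's unadjusted p under 0.05 there were 17, 15, 20, 23, 16 and 23 of the 121 in that order (14%, 12.4%, 16.5%, 19%, 13.2% and 19%, beside 17.8%, 16%, 19.6%, 21.5%, 11.6% and 21.6% of all probe sets). The shares past the adjusted threshold were near or below the shares of all probe sets given above. Of the 16 calls, 15 were lost when only the 2 groups compared were fitted, which leaves fewer arrays to estimate the spread, and 8 with the forestomach level as a covariate.

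Dusp6 encodes a phosphatase that inactivates ERK and is itself induced by ERK signalling. It read 1600, 1616 and 1643 in wild type, 868, 752 and 863 under saline, 1506, 1314 and 1214 under gastrin, and 1556, 1299 and 1477 in double knockouts. The saline arrays lay below all of the other 9. Dusp6 fell in saline-infused knockouts against wild type (-0.97 ± 0.10 SE, n = 3 against 3, adjusted p = 0.0077 by limma) and rose under gastrin (0.70, 0.0247). It was also higher in double knockouts than under saline (0.80, 0.00514). Those groups differ in both infusion and CCK genotype, which cannot be told apart here. The first and last of these Dusp6 calls held whichever 1 array of the groups compared was left out. The gastrin call held without gastrin-infused replicate 3 (adjusted p = 0.0391 by limma) and was lost without each of the other 5 arrays (up to 0.0648) and with the forestomach covariate (0.0639). Double knockout and wild type differed by -0.17 (adjusted p = 0.41). Of 16 measured feedback and response genes (of 18), Dusp6 was the only one to pass in either of the gastrin knockout comparisons against wild type or saline.

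Among the other feedback and response genes, Phlda1 and Spry2 passed in comparisons with the double knockout. Phlda1 read 3302, 3655 and 3313 in wild type, 2382, 2229 and 2428 under saline, 3121, 2853 and 2760 under gastrin, and 3638, 4981 and 2916 in double knockouts. The double knockout exceeded saline by 0.68 (adjusted p = 0.0453 by limma) but overlapped wild type (0.13, 0.716). As with Dusp6, the saline arrays lay wholly below each other group. Their difference from wild type was -0.54 and did not pass (adjusted p = 0.13 by limma). Spry2, a feedback inhibitor of receptor tyrosine kinase signalling, read 632, 546 and 577 in double knockouts on probe set 1436584_at, against 838, 1009 and 1081 in wild type. It fell by 0.73 against wild type (adjusted p = 0.0303 by limma) and by 0.58 against saline (0.0484). These calls were fragile. Phlda1 held only without double knockout replicate 3 and Spry2 against wild type only without wild type replicate 1, while Spry2 against saline was lost without each of the 6 arrays in turn. The second Spry2 probe set did not pass.

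Lrig1 is an inhibitor that promotes degradation of EGF family receptors, and it marks progenitor cells of the gastric gland. Probe set 1449893_a_at read 358, 435 and 697 in wild type, 521, 581 and 512 under saline, 852, 636 and 652 under gastrin, and 1140, 1004 and 986 in double knockouts. It rose in double knockouts against wild type (1.13, adjusted p = 0.031 by limma) and against saline (0.96, 0.0396). Probe set 1434210_s_at rose against wild type too (0.81, 0.0412), with 1341, 1149 and 1267 against 602, 692 and 875. On that probe set the gastrin-infused knockouts read 1634, 1409 and 1086, also wholly above wild type (0.93, adjusted p = 0.105 by limma) and overlapping the double knockouts. The third Lrig1 probe set had means of 438 to 476 and did not pass. Against wild type, both calls held only without wild type replicate 3, the highest wild type array on both probe sets. The call against saline was lost without each of the 6 arrays in turn. Of 10 measured inhibitors of the receptor (of 12), Lrig1 was the one that passed in any comparison.

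At the receptor itself, 3 of 13 measured adaptors and enzymes (of 14) passed, each in comparisons with the double knockout. Pik3ca, the catalytic subunit of PI3-kinase, read 1188, 1303 and 1089 in double knockouts on probe set 1460326_at, above the 580 to 879 of all other arrays. It rose against saline by 0.78 (adjusted p = 0.00957 by limma), which held whichever 1 array was left out. Its rise against wild type (0.52, 0.0449) and its lower level in gastrin-infused knockouts than in the double knockout (-0.48, 0.0469) were each lost whichever 1 array of the groups compared was left out. On the second Pik3ca probe set (1423144_at) the double knockout also lay wholly above saline, by 0.63, and did not pass (adjusted p = 0.0948 by limma). Shc1, an adaptor that links receptors to RAS, fell against wild type by 0.51 (adjusted p = 0.015 by limma), from 1707, 1672 and 1633 to 1259, 1240 and 1028, and this was lost without wild type replicate 1 (0.051). On that probe set (1422854_at) it read 1326, 1358 and 1423 under saline and 1309, 1384 and 1370 under gastrin. Both infused groups also lay wholly below wild type, by 0.29 and 0.30, and did not pass (adjusted p = 0.114 and 0.247 by limma). The second Shc1 probe set did not pass in any comparison. Ptpn11, a phosphatase that promotes RAS activation, fell against saline on 1 of 3 probe sets (-0.84, 0.0457), a call lost without each of the 6 arrays in turn.

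Nras, a RAS protein, rose in double knockouts against saline on 1 of 3 probe sets, from 698, 793 and 656 to 1152, 1384 and 1055 (0.74, adjusted p = 0.0148 by limma). This was lost without saline replicate 1 (0.0506). A second Nras probe set (1422688_a_at) lay the other way, at 749, 816 and 563 in double knockouts and 894, 1008 and 993 under saline. Those groups did not overlap, and the difference of -0.46 did not pass (adjusted p = 0.161 by limma). The third (1454060_a_at) was higher in double knockouts by 0.33, overlapped saline and did not pass (adjusted p = 0.234 by limma). Nras was the only one of 11 measured cascade genes (of 18) to pass in any comparison. Adam10, a protease that cuts Btc and Egf from the membrane, was lower in gastrin-infused than in double knockouts on 1 of 3 probe sets (1275, 1015 and 1121 against 1556, 1733 and 1659). The difference was -0.54 (adjusted p = 0.0217 by limma), and it held only without gastrin-infused replicate 1 or double knockout replicate 1. On that probe set (1450105_at) the gastrin-infused arrays also lay wholly below saline and wild type. Those differences, -0.47 and -0.67, did not pass (adjusted p = 0.0687 and 0.0612 by limma).

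**Figure D4:**
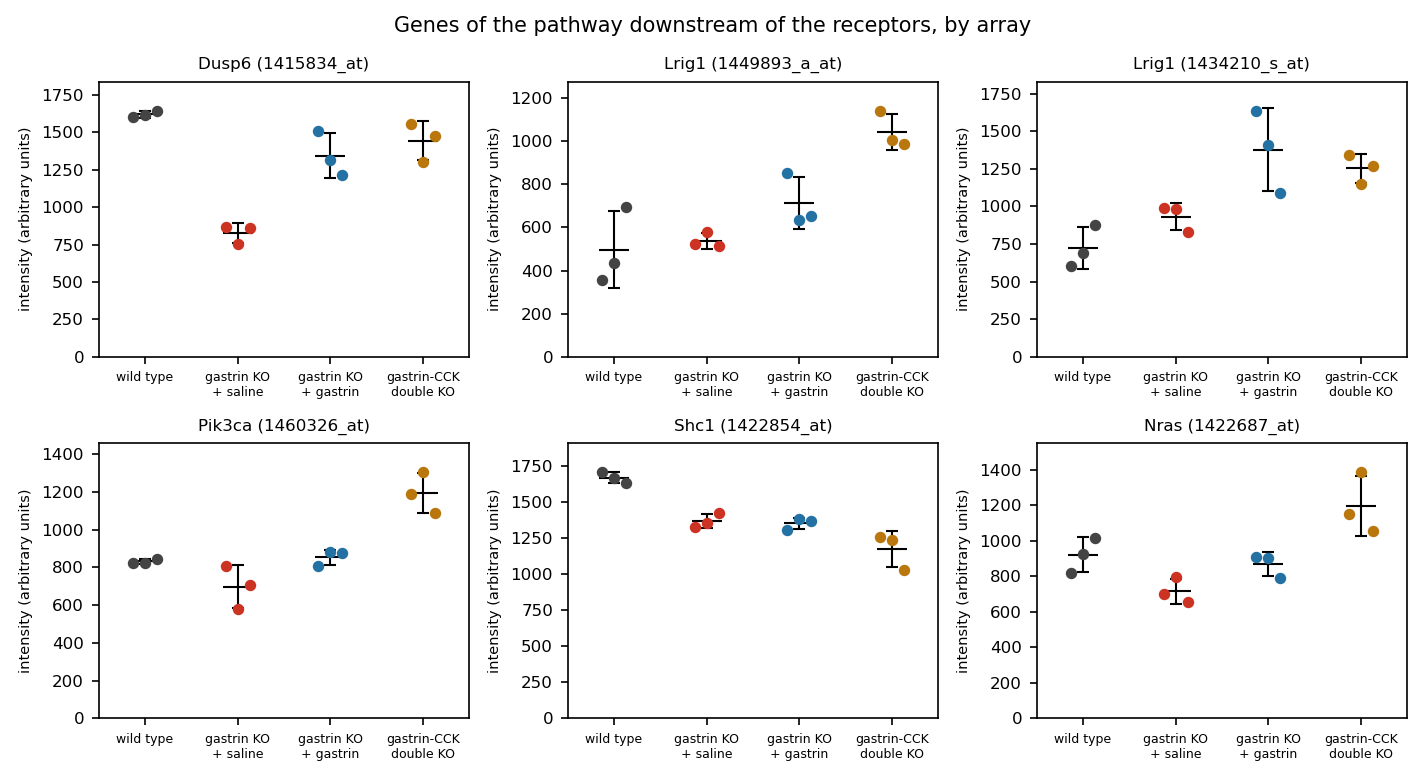
Intensity of 6 probe sets of pathway genes outside the member set on the 12 arrays, with the mean and SD of each group of 3, on linear axes that start at 0. Dusp6 is low in saline-infused knockouts (752 to 868), and Pik3ca is high in double knockouts (1089 to 1303).

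Other cell markers moved in the double knockout. Summed parietal markers were 150454 to 161195 there against 215309 to 256463 in wild type, and 3 of 9 measured genes fell. In saline-infused knockouts 5 of the 9 fell against wild type. Against saline, 1 of the 9 was higher and 1 lower in double knockouts, with a median difference of 0.25. Sums follow the brightest genes, and the double knockout arrays had lower maxima. Surface mucous markers fell in 4 of 5 measured genes and chief cell markers in 3 of 5, against wild type. Summed stroma and smooth muscle markers were 7115 to 13903 in double knockouts and 16491 to 18712 in wild type, with a median difference of -1.27, and 1 of 8 fell. Summed enterochromaffin-like cell markers were 2658 to 3696 in double knockouts, 7339 to 12887 in wild type, 2484 to 2826 under saline and 14788 to 22341 under gastrin. Their part in the Egfr, Lrig1, Pik3ca and Shc1 values was not tested.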

How the data were processed

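The deposited values are linear intensities, 1 for each probe set on each array. How the authors scaled, summarised and background-corrected them is not given in the sources used here. Per the labels' protocols, about 1 µg of total RNA from fundic scrapings was labelled with biotin. Of 22690 probe sets, 64 controls were left out. Intensities were floored at 16 and taken to log2, and 6 comparisons were fitted over all 12 arrays, with 1 mean per group, in limma 3.58.1 (R 4.3.3), which was tested on simulated data. Noise is the 1st percentile with its sign turned. Groups overlap where their ranges of floored values meet. The precision is limited by 3 arrays per group.

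Probe sets were named through the platform's gene table. Every member probe set is named, as is each listed pathway gene past the threshold in any comparison. The members and lists were chosen with earlier results of these data known. Alternatives varied the scaling, floor, filter, variance model, covariates, samples and replicate block. The forestomach covariate was added after seeing the data.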

Additional observations from a re-analysis of the deposited data

How the results depend on the processing

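The number of member probe sets past the threshold moved by at most 1. For saline-infused knockout against wild type it went from 0 to 1 (Tgfa 1421943_at) under quantile normalization (adjusted p = 0.0252), a filter at the median level (0.0134), a floor of 64 (0.0475), an intensity trend in limma's prior (0.0416) and the replicate block (0.0377), and was 0 without any 1 replicate. This Tgfa probe set did not pass with median centring (0.0687), a floor of 1 (0.058), the Gapdh ratio covariate (0.141) or the forestomach covariate (0.108). Nor did it with only the 2 groups compared (0.108) or without any 1 replicate (0.0797 to 0.133). For gastrin against saline the number went from 1 to 2 with the median filter, which adds Tgfa (0.035), to 0 with the forestomach covariate and with only the 2 groups compared, and to between 0 and 1 without 1 replicate. For double knockout against wild type it was 1 with the median filter (Egfr 1454313_at) and between 0 and 1 without 1 replicate. For double knockout against saline it was 1 with the median filter, the floor of 64 and the trend (Egfr 1460420_a_at), with the replicate block (Erbb3 1434606_at) and with only the 2 groups (Egfr 1432647_at), and 0 without any 1 replicate. For gastrin-infused against double knockout it was 0 with only the 2 groups and between 0 and 1 without 1 replicate. The cause of these moves was not tested. For gastrin-infused knockout against wild type it was 0 under every alternative run.

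Of all 102 member differences, 30 changed sign under some alternative, and 0 of these had passed the test (smallest adjusted p 0.607 by limma). The 34 differences followed through each alternative were picked from those that did not change sign under the alternatives that could be run. For the dimmer probe sets these alternatives leave out the median filter. The stable sign of the 34 was thus fixed by that choice and is not a result. Not all of the 34 are printed here, and the plot of member differences with their intervals also holds differences outside this set. Counts over all probe sets moved more. For saline-infused knockout against wild type, gastrin against saline, double knockout against wild type, double knockout against saline, gastrin-infused knockout against wild type and gastrin-infused against double knockout, in that order, they were 470, 282, 936, 1352, 25 and 1319, with lows of 22, 7, 43, 208, 3 and 295 (forestomach covariate for the second, only the 2 groups compared for the rest) and highs of 815, 701, 1302, 1809, 73 and 1713 (median filter). Of the 16 pathway calls, 7 were lost with the replicate block and 6 with the 3' to 5' Gapdh ratio as a covariate. With the replicate number as a block the counts over all probe sets were, in the same order, 239, 140, 703, 1145, 8 and 1131. Of 18 same-numbered pairs of samples, 5 had deviations that correlated above 0.1 (range -0.357 to 0.506). Differently numbered pairs were not compared, so this cannot show whether samples with the same number share more than the number. Values near the noise of 67 to 96, such as part of Ereg, Btc 1421161_at and Erbb3 1452482_at, limit what those probe sets can show.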
